A study of Mus musculus with 12 samples.

Results

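The dual-specificity MAP kinase phosphatases are enzymes that take the phosphates off both the threonine and the tyrosine of an activated MAP kinase. The 9 genes described here, Dusp1, Dusp2, Dusp4, Dusp5, Dusp6, Dusp7, Dusp8, Dusp10 and Dusp16, were chosen by gene name from a count table of 54532 genes. All 9 were among the 13800 genes that passed the filter on low counts. RNA with poly-A tails was measured by sequencing in bone marrow-derived macrophages, which are marrow cells of 8-week-old male mice grown in the presence of 50 ng/mL of the growth factor M-CSF. The 12 libraries form 4 groups of 3. The study, by its title, asks about the integrin alpha9beta1 of macrophages in periodontal inflammation.

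The groups were Itga9-Lyz2-cKO cells with Pg (cKO Pg), Itga9-Lyz2-cKO cells without it (cKO control), Itga9-Lyz2-cHet cells with Pg (cHet Pg) and Itga9-Lyz2-cHet cells without it (cHet control). Pg is the labels' name for the stimulus, given for 2 hours at a multiplicity of infection written as 1:20. M-CSF was common to all groups. Itga9 encodes the alpha chain of the integrin, and Lyz2 is a myeloid gene whose promoter is widely used to drive Cre recombinase in macrophages, neutrophils and their precursors. The labels spell out neither the alleles nor the Cre line, and every group carries one of these genotypes, so there is no group free of them. Whether the 3 libraries of a group are 3 mice, 3 cultures or repeats of one preparation is not stated, and the p-values below therefore reflect library-to-library spread that may be technical.

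MAP kinases pass signals from receptors of microbial products to genes of inflammation and of growth, in 3-step relays of kinases that end in ERK, JNK or p38. The phosphatases act at the last step and end the signal. Dusp1, Dusp2, Dusp4 and Dusp5 are nuclear enzymes whose genes are switched on by the kinases they restrain, Dusp6 and Dusp7 are cytoplasmic enzymes that act on ERK, and Dusp8, Dusp10 and Dusp16 act mainly on JNK and p38. In macrophages Dusp1 is best known as a brake on cytokine production after microbial stimulation.

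Promoter sequences are shown for the 3 genes whose Pg response differed between the genotypes and for Dusp6, the gene that fell under Pg. They are the 250 bases before the RefSeq start site on build GRCm38.p6, printed 5′ to 3′ on the strand of the gene. Capitals mark the cAMP response element TGACGTCA and the CArG box, the site of serum response factor.
Dusp1, chr17:26508473-26508722, minus strand: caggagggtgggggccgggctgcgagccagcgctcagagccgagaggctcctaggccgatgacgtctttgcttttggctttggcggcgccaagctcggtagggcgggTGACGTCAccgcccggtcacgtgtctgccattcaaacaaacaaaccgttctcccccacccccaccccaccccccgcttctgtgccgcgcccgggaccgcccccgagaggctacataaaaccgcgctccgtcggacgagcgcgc
Dusp5, chr19:53528895-53529144, plus strand: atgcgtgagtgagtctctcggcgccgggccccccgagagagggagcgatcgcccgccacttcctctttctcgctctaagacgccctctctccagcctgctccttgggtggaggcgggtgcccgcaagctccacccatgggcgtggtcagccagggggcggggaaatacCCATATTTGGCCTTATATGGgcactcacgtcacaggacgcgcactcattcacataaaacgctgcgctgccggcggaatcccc
Dusp8, chr7:142095285-142095534, minus strand: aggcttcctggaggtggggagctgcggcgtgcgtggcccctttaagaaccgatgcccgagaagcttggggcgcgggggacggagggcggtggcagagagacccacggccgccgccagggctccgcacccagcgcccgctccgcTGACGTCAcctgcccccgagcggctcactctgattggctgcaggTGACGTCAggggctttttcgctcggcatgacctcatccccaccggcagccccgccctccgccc
Dusp6, chr10:99262981-99263230, plus strand: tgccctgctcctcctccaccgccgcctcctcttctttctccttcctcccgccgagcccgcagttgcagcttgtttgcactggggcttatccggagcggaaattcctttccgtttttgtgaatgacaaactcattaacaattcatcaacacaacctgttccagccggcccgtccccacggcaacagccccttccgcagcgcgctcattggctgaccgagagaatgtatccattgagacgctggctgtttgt

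RefSeq promoters were found for 8 of the 9 genes, and Dusp4 had no entry. The RefSeq starts of Dusp1, Dusp5, Dusp8 and Dusp10 lie inside the gene bodies that the count table gives, 47, 36, 559 and 21079 bases downstream of the table's starts, so the Dusp10 window is far from the start of its gene in the table. The element TGACGTCA, searched on both strands, was in 2 of the 8 promoters and in 1.55% of all 32851 promoters of the same length. Dusp1 held 1 copy, 143 to 136 bases before the start, and Dusp8 held copies at 107 to 100 and at 63 to 56 bases. The shorter TGACG, which is part of that element, was in Dusp1, Dusp5, Dusp8 and Dusp16 and in 17.8% of all promoters. A CArG box was in Dusp5 alone of the 8 and in 1.47% of all promoters, and Dusp5 held adjacent copies at 82 to 73 and 72 to 63 bases before the start. The NF-kB motif (GGG, then 5 bases of any kind, then CC) was in 6 of the 8 and in 45.8% of all promoters, and it overlaps the first CArG box of Dusp5 by its last letters. The EGR motif GCGNGGGCG was in Dusp2 and Dusp16 and in 4.7% of all promoters. The ETS core GGAAG was in 4 of the 8 and in 64.1% of all promoters, and the AP-1 motif TGANTCA was in none of the 8 and in 6.75% of all promoters. The 8 promoters held between 56.4% (Dusp6) and 77.2% (Dusp7) of the bases G and C, against a median of 52.4% over all promoters. The shares over all promoters are not matched for this base content. These matches describe letters and do not show that a factor was bound.

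Library totals lay between 14527674 and 16793803 counts. In a principal component analysis Pg and control libraries parted along the first axis (51.5% of the variance) and the genotypes along the second (20.9%). Itga9 lay between 7.83 and 13.6 CPM (the count scaled by library size) in cKO Pg and between 5.97 and 11.5 CPM in cKO control libraries. It lay between 19.4 and 33.97 CPM in cHet Pg and between 17.9 and 32.3 CPM in cHet control libraries, so every cKO library was below every cHet library. Genotypes did not overlap for 17.6% of all tested genes under Pg and for 23.5% in controls. By edgeR's test Itga9 did not pass under Pg, at -1.39 ± 0.36 on the log2 scale (adjusted p = 0.125). It passed narrowly in controls, at -1.53 ± 0.37 (adjusted p = 0.0497). The 8 macrophage markers summed to between 7838 and 9585 CPM over the 12 libraries, and edgeR called none of the 8 between genotypes, as did DESeq2, with 2 under Pg and 3 in controls at an unadjusted p below 0.05. With no filter on low counts edgeR called 2 of the 8 in controls, beside 1101 of the 27404 genes in that fit, and none under Pg. Marker sums of endothelial cells, neutrophils, monocytes and lymphocytes overlapped between cKO and cHet libraries. So did those of mast and erythroid cells under Pg. Single markers passed the test in controls all the same. Of 4 B and plasma cell markers 1 was higher in cKO, and of 3 endothelial markers tested 1 was lower, beside 5.15% of all tested genes. In control libraries the erythroid sum lay between 11.5 and 18.6 CPM in cKO and between 22.5 and 29.97 CPM in cHet, and the mast cell sum between 0.816 and 1.06 CPM in cKO and between 1.28 and 1.37 CPM in cHet. The stromal sum did not overlap between genotypes in either state, with 1 of its 10 markers at 0 in each group. It lay between 4.48 and 7.15 CPM in cKO Pg and 2.74 and 3.92 CPM in cKO control libraries, against 38.3 to 48.0 CPM in cHet Pg and 37.2 to 40.7 CPM in cHet control libraries. In each genotype comparison 6 of the 7 stromal markers tested were lower in cKO. The 12 libraries also split by the sum of 6 dendritic cell markers, and in that sum the split rests on Itgax. Itgax alone lay between 102.6 and 137 CPM on the high side and between 36.2 and 59.2 CPM on the low side. No other marker of the list exceeded 4.10 CPM in any library. The sum lay between 112.9 and 146 CPM in 6 libraries (cKO Pg 1 and 2, cKO control 1, cHet Pg 2 and 3, cHet control 1) and between 40.8 and 65.7 CPM in the other 6. The third axis of the principal component analysis (5.84% of the variance) parted the same libraries. Positions on it were 3.81 to 13.7 in the 6 high libraries and -15.7 to -5.25 in the other 6. The split was thus not confined to these markers. In bulk RNA, fewer cells of a type and less RNA per cell cannot be told apart.

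In response to Pg, 8 of the 9 phosphatase genes rose and Dusp6 fell in cKO, and 7 rose, Dusp6 fell and Dusp8 did not pass the test in cHet. The nuclear enzymes Dusp1, Dusp2 and Dusp5 moved most, with rises of 12.9-fold, 11.0-fold and 15.6-fold in cKO against 5.93-fold, 8.88-fold and 7.85-fold in cHet. The calls are those of edgeR's quasi-likelihood F test at an adjusted p below 0.05. Over all tested genes 34% passed in cKO, 16.9% higher and 17.1% lower under Pg, and 36.1% passed in cHet, 18% in each direction. The median log2 fold change of the 9 genes was 1.08 in cKO and 0.82 in cHet, against 0.00 and -0.01 over all tested genes. Pg and control libraries did not overlap for 9 of the 9 genes in cKO and for 8 of the 9 in cHet, beside 45.1% and 47.3% of all tested genes.

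**Figure D1:**
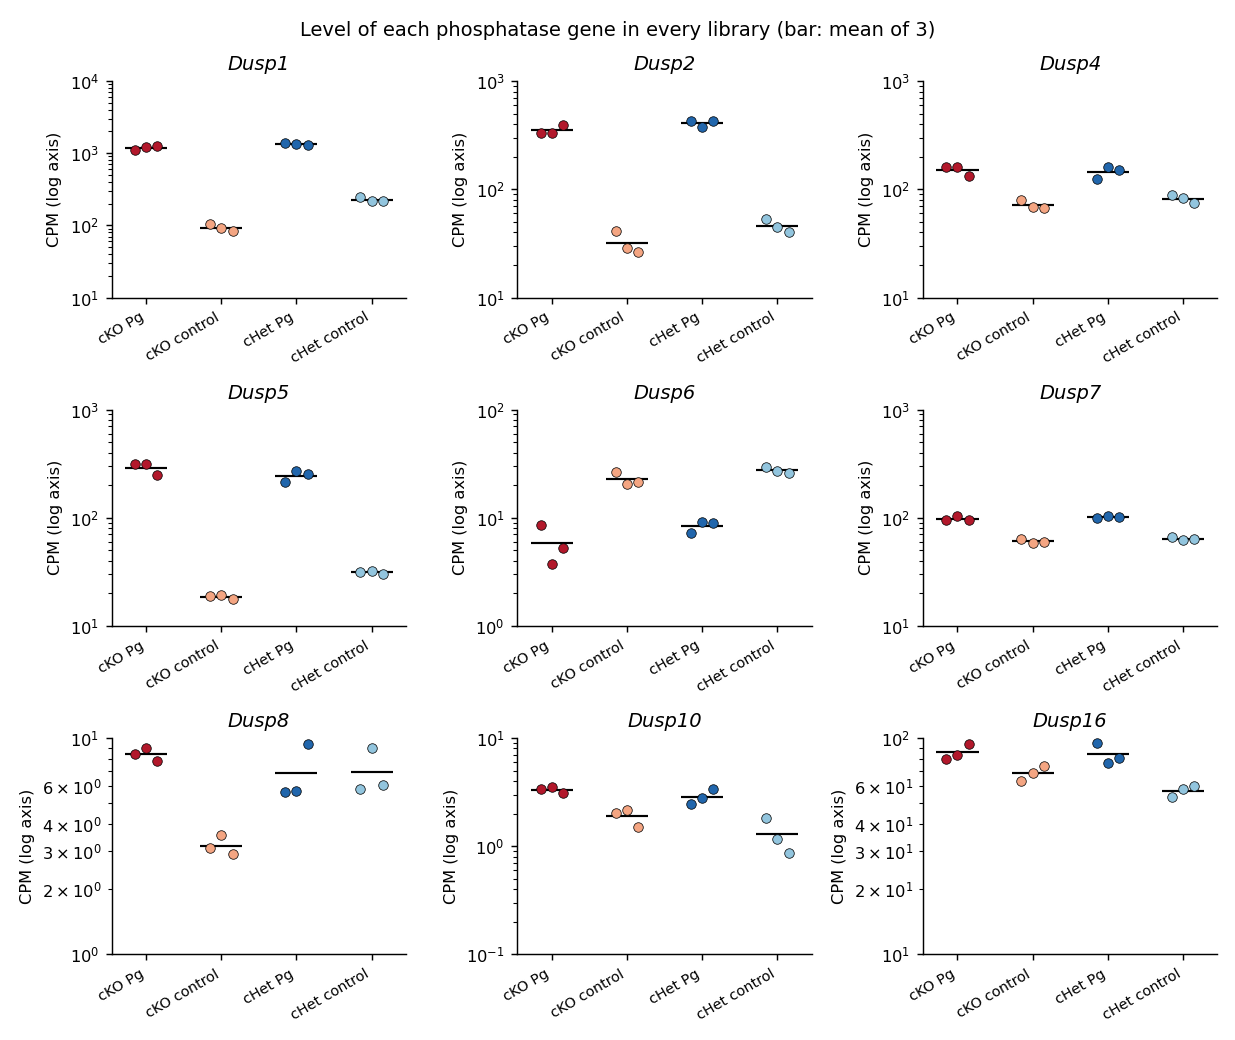
CPM of each of the 9 phosphatase genes on a log axis, with 1 point for each library and a bar at the mean of the 3 libraries of a group. Dusp1, Dusp2 and Dusp5 stand 5.93-fold to 15.6-fold higher under Pg, Dusp6 is lower, and Dusp8 shows overlapping cHet groups beside separate cKO groups.

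Dusp1, the nuclear phosphatase of p38 and JNK, had 1093, 1226 and 1275 CPM in the cKO Pg libraries, against 103, 91.6 and 83.4 CPM in the cKO control libraries. In cHet cells it had 1383, 1321 and 1319 CPM with Pg, against 245, 217 and 217 CPM without. All Pg libraries were far above all control libraries, and the 3 cKO control libraries were the lowest of the 12. The log2 fold change under Pg was 3.69 ± 0.09 (SE) in cKO (adjusted p = 1.26e-14) and 2.57 ± 0.08 in cHet (adjusted p = 4.58e-13). By rank of that change Dusp1 was gene 46 of 13800 in cKO and gene 99 in cHet. Added to the control mean, Pg brought 1105 CPM in cKO and 1115 CPM in cHet, so that the increments of Dusp1 were close on the linear scale while the folds differed. This did not hold for Dusp5, with increments of 272 CPM in cKO and 214 CPM in cHet. Nor did it hold for Dusp8, with 5.26 CPM in cKO and -0.05 CPM in cHet.

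Dusp2, a nuclear phosphatase found mainly in blood cells, had 329.9, 331.0 and 395 CPM in the cKO Pg libraries, against 41.1, 28.9 and 26.1 CPM in the cKO control libraries. With Pg, cHet cells had 429, 373 and 426 CPM, against 52.7, 45.3 and 40.1 CPM without. Pg and control libraries were well separated, while the genotypes overlapped in both states. The rise was 3.46 ± 0.17 on the log2 scale in cKO (adjusted p = 5.05e-08) and 3.15 ± 0.17 in cHet (adjusted p = 8.48e-08).

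Dusp5, the nuclear phosphatase that acts on ERK alone among the MAP kinases, had 312, 314 and 246 CPM in the cKO Pg libraries, against 18.9, 19.3 and 17.8 CPM in the cKO control libraries. It had 214, 268 and 254 CPM in the cHet Pg libraries, against 31.6, 32.1 and 29.97 CPM in the cHet control libraries. The control libraries of each genotype lay close together and apart from those of the other, and the Pg libraries of the genotypes overlapped. Pg raised it by 3.96 ± 0.11 on the log2 scale in cKO (adjusted p = 1e-13), the 32nd largest rise of all tested genes, and by 2.97 ± 0.10 in cHet (adjusted p = 3.49e-12), the 55th. The reference annotation places an antisense gene across 547 exonic bases of Dusp5. The strand setting of the counts is not given in the sources used here, so reads of the partners cannot be told apart.

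Dusp4, the fourth nuclear enzyme and which acts on ERK and JNK, had 160.0, 159.7 and 132 CPM in the cKO Pg libraries, against 78.9, 68.9 and 66.6 CPM in the cKO control libraries. It had 125, 159 and 151 CPM in the cHet Pg libraries, against 88.6, 83.3 and 74.6 CPM in the cHet control libraries. No Pg library overlapped a control library, but its rise was smaller than that of the other nuclear enzymes, 1.08 ± 0.10 on the log2 scale in cKO (adjusted p = 1.13e-06) and 0.82 ± 0.10 in cHet (adjusted p = 1.6e-05).

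The cytoplasmic ERK phosphatases moved in opposite directions. Dusp6, whose gene is a standard readout of ERK activity in many cell types, had 8.53, 3.77 and 5.29 CPM in the cKO Pg libraries, against 26.6, 20.5 and 21.3 CPM in the cKO control libraries. It had 7.23, 9.14 and 9.03 CPM in the cHet Pg libraries, against 29.5, 26.9 and 25.7 CPM in the cHet control libraries. Every Pg library was below every control library. Dusp6 fell by 1.95 on the log2 scale in cKO (SE 0.21, adjusted p = 8.76e-06) and by 1.69 in cHet (SE 0.20, adjusted p = 2.01e-05). These were the 74th and 82nd largest falls of the 13800 genes, and the cKO Pg libraries spread most, with a coefficient of variation of 41.5%.

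Dusp7, the close relative of Dusp6, had 94.97, 103 and 94.6 CPM in the cKO Pg libraries, against 63.5, 57.9 and 60.2 CPM in the cKO control libraries. It had 100.2, 105 and 101 CPM in the cHet Pg libraries, against 66.5, 61.6 and 63.1 CPM in the cHet control libraries. The 6 Pg libraries formed one narrow band above the 6 control libraries. The rise was 0.69 ± 0.06 on the log2 scale in cKO (adjusted p = 2.01e-07) and 0.68 ± 0.06 in cHet (adjusted p = 2.13e-07). The difference between these responses was 0.01, with a 95% interval of -0.19 to 0.21.

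Of the JNK and p38 phosphatases, Dusp16 was the most abundant, with 80.2, 83.5 and 94.0 CPM in the cKO Pg libraries, against 63.4, 68.7 and 74.0 CPM in the cKO control libraries. It had 94.6, 76.3 and 81.2 CPM in the cHet Pg libraries, against 53.2, 58.4 and 59.9 CPM in the cHet control libraries. Pg libraries stood above control libraries in each genotype, by a narrow margin in cKO. The log2 rise was 0.32 ± 0.09 in cKO (adjusted p = 0.00834) and 0.56 ± 0.09 in cHet (adjusted p = 9.47e-05). With library size as the only scaling, the value in cKO was 0.08 (adjusted p = 0.492).

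Dusp10 was the rarest of the 9 genes, with 14 to 50 counts per library. It had 3.36, 3.55 and 3.09 CPM in the cKO Pg libraries, against 2.02, 2.18 and 1.52 CPM in the cKO control libraries. In cHet cells its levels were 2.46, 2.81 and 3.35 CPM with Pg, against 1.83, 1.16 and 0.871 CPM without. No Pg library overlapped a control library of its genotype. The log2 rise was 0.81 ± 0.26 in cKO (adjusted p = 0.0251) and 1.14 ± 0.28 in cHet (adjusted p = 0.00398). The call in cKO was lost with library size as the only scaling (0.56, adjusted p = 0.0888), without cKO Pg 1 (adjusted p = 0.0580), without cKO Pg 2 (adjusted p = 0.0735) and without cKO control 3 (adjusted p = 0.110).

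Dusp8 had 8.46, 9.02 and 7.83 CPM in the cKO Pg libraries, against 3.09, 3.55 and 2.92 CPM in the cKO control libraries. It had 5.62, 5.70 and 9.37 CPM in the cHet Pg libraries, against 5.84, 8.96 and 6.03 CPM in the cHet control libraries. The cKO groups were apart, and the cHet groups covered the same range. The log2 fold change was 1.41 ± 0.22 in cKO (adjusted p = 9.19e-05) and -0.01 ± 0.21 in cHet (adjusted p = 0.983), with a 95% interval in cHet of -0.48 to 0.47. Each value rests on 50 to 154 counts per library.

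In these Pg comparisons 2 of the 3 Pg libraries but 1 of the 3 control libraries of each genotype were on the high side of the dendritic cell markers. Within all 4 groups Dusp10 was higher on that side by 0.15 to 0.87 on the log2 scale, Dusp6 by 0.099 to 0.35, Dusp4 by 0.17 to 0.31 and Dusp7 by 0.037 to 0.11. Dusp16 was lower on that side in all 4 groups, by 0.15 to 0.27. Dusp2 was higher on that side in controls, by 0.58 in cKO and 0.31 in cHet, and lower under Pg, and Dusp1 likewise was higher in controls, by 0.24 and 0.18, and lower under Pg. Dusp8 had no common direction over the 4 groups. Dusp5 was higher on that side by 0.35 in cKO Pg and 0.29 in cHet Pg, and by 0.03 in each control group. With the marker sum as a covariate, the same 9 genes in cKO and the same 8 genes in cHet passed the test in the same directions. The covariate has a single slope for all groups. It therefore cannot take up a difference that changes between control and Pg libraries, as for Dusp1, Dusp2, Dusp5 and Dusp8. Leaving out the 4 libraries that stood apart from the rest of their group (cKO Pg 3, cKO control 1, cHet Pg 1 and cHet control 1) leaves every Pg library on the high side and every control library on the low side. In that fit the markers and Pg cannot be told apart, so it is used below for the genotype comparisons and the interaction alone. Since the marker sum is mostly Itgax, the split does not establish a difference in dendritic cell content. Its part in the spread was not tested.

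**Figure D2:**
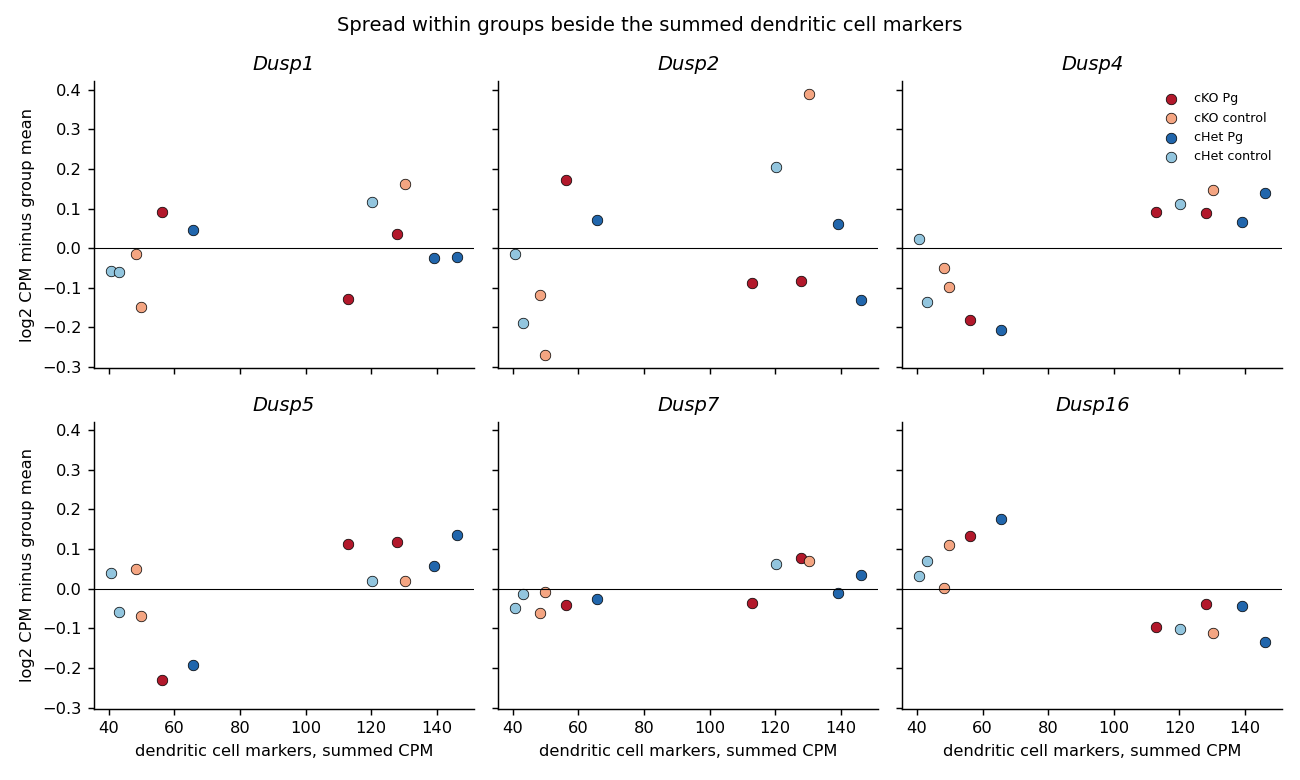
Log2 CPM of 6 phosphatase genes in every library minus the mean of its group, against the summed CPM of 6 dendritic cell markers, mostly Itgax, with 1 point for each library coloured by group. Dusp4 lies higher and Dusp16 lower in the 6 libraries with 112.9 to 146 CPM of the markers, and Dusp7 shows little spread.

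Levels can be compared between genes only per length, as CPM per kilobase of the gene length in the count table (RPKM). On that scale the 9 genes summed to 837 ± 33.7 RPKM in cKO Pg, 119 ± 11.3 in cKO control, 900.0 ± 9.94 in cHet Pg and 186 ± 12.4 in cHet control libraries (SD, n = 3 each). Dusp1 held 53.0% of the sum in cKO Pg and 28.8% in cKO control, against 55.3% in cHet Pg and 45.0% in cHet control. Dusp2 followed under Pg with 21.0% in cKO and 22.7% in cHet, and Dusp5 with 14.1% in cKO and 11.0% in cHet. Without Pg, Dusp4 held 21.8% in cKO and 16.1% in cHet, and Dusp7 held 15.2% in cKO and 10.2% in cHet. Dusp6 made up 0.226% of the sum in cKO Pg and 6.08% in cKO control, against 0.301% in cHet Pg and 4.69% in cHet control. Dusp1, Dusp2 and Dusp5 thus led under Pg, while the control cells held a more even mix. The exon length of Dusp1 is longer in the reference annotation than in the count table, 3311 against 2697 bases, and with the longer value its shares were 47.9% in cKO Pg, 24.8% in cKO control, 50.1% in cHet Pg and 40.0% in cHet control.

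**Figure D3:**
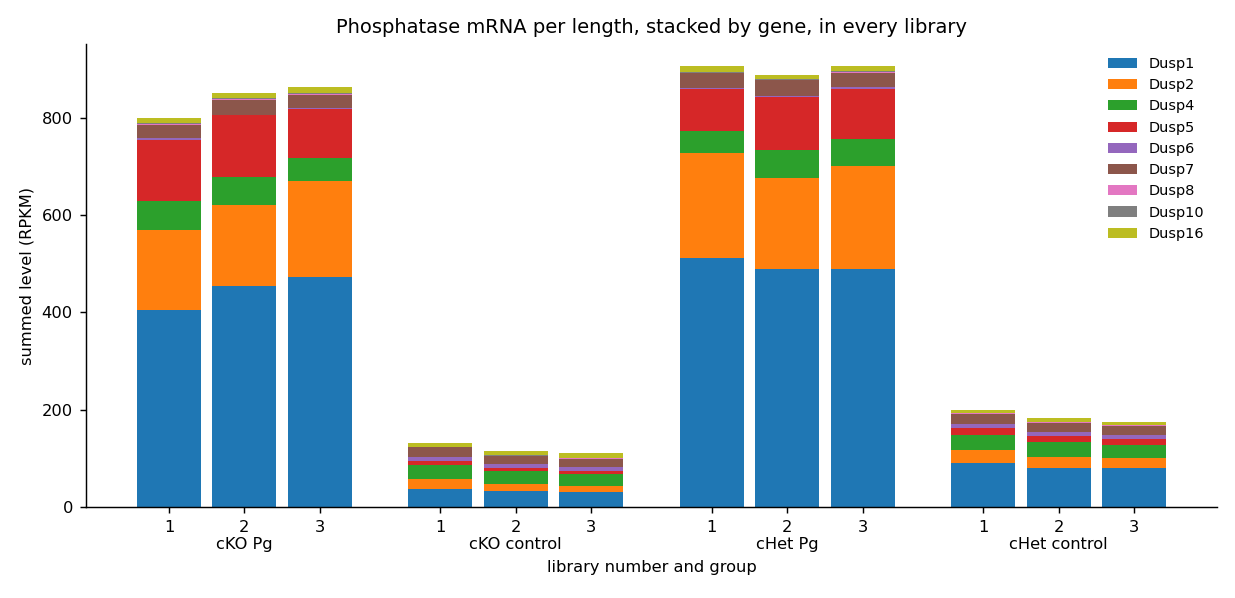
Summed level of the 9 phosphatase genes in RPKM, stacked by gene, with 1 bar for each library. The Pg bars reach a mean of 837 RPKM in cKO and 900.0 RPKM in cHet, with Dusp1, Dusp2 and Dusp5 as the widest bands, and the cKO control bars are the shortest.

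Between genotypes in control cells, 3 of the 9 genes passed the test, each lower in cKO, beside 5.15% of all tested genes that passed, 3.02% lower and 2.13% higher. Dusp1 differed by -1.29 ± 0.08 on the log2 scale, which is 2.44-fold lower in cKO (adjusted p = 4.94e-08). Dusp8 differed by -1.12 ± 0.22, which is 2.18-fold lower (adjusted p = 0.00591), and Dusp5 by -0.74 ± 0.11, which is 1.67-fold lower (adjusted p = 0.000477). The median of the 9 genes was -0.26, against 0.00 over all tested genes. cKO and cHet control libraries did not overlap for these 3 genes and for Dusp16, 4 of the 9 genes, beside 23.5% of all tested genes.

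The other 6 genes did not pass the test in control cells. Dusp2 was at -0.52 ± 0.16 (adjusted p = 0.106), Dusp6 at -0.26 ± 0.18 (adjusted p = 0.505) and Dusp4 at -0.20 ± 0.10 (adjusted p = 0.330). Dusp16 was at 0.27 ± 0.09 (adjusted p = 0.0976), Dusp10 at 0.55 ± 0.29 (adjusted p = 0.337) and Dusp7 at -0.07 ± 0.06 (adjusted p = 0.598). Leaving out 1 library moved Dusp10 to between 0.34, without cHet control 3, and 0.90, without cHet control 1, and it passed in none of these fits. Same-numbered control libraries had correlated deviations, between 0.176 and 0.666 for the 3 pairs. Yet cKO control 2 correlated more with cHet control 3 (0.412) than with cHet control 2 (0.176). Likewise cKO control 3 correlated more with cHet control 2 (0.469) than with cHet control 3 (0.188). The numbers therefore do not establish a pairing of the control libraries. Control libraries of cKO and cHet correlated positively where both were on the same side of the dendritic cell markers. Across sides the correlations were -0.494 to -0.434. Both control libraries numbered 1 were on the high side and those numbered 2 and 3 on the low side. The replicate block below and the fits by these markers therefore overlap and are not separate lines of evidence. In a fit of the 6 control libraries alone with the replicate number as a block, 7 of the 9 genes passed, 6 lower and 1 higher in cKO, beside 13.6% of the 13229 genes tested in that fit. The added ones were Dusp2 (-0.54, adjusted p = 1.31e-05), Dusp4 (-0.20, adjusted p = 0.0259), Dusp6 (-0.27, adjusted p = 0.0382) and Dusp16 (0.26, adjusted p = 0.00580). Dusp2 also passed with DESeq2 (adjusted p = 0.0109) and without cKO control 1, the highest of the cKO control libraries (-0.75, adjusted p = 0.00268). With the dendritic cell marker sum as a covariate 5 of the 9 genes passed, Dusp4 and Dusp16 in addition to the 3, beside 12.5% of all tested genes. Without the 4 libraries that stood apart 6 passed, with Dusp2 as well, beside 10.3%.

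Under Pg none of the 9 genes passed the test between genotypes, beside 1.85% of all tested genes (0.652% higher and 1.2% lower in cKO), and 2 of them had an unadjusted p below 0.05. DESeq2 and limma-voom also called none, and the fit with no filter on low counts called 2, Dusp5 and Dusp6, beside 507 of the 27404 genes in that fit. The median of the 9 genes was 0.03, against 0.00 over all tested genes. Dusp1 differed by -0.16 ± 0.08 (adjusted p = 0.428), with a 95% interval of -0.35 to 0.02. It was the 1 gene of the 9 whose genotypes did not overlap under Pg, beside 17.6% of all tested genes. Dusp2 differed by -0.22 ± 0.15 (adjusted p = 0.642), Dusp5 by 0.24 ± 0.09 (adjusted p = 0.260) and Dusp6 by -0.53 ± 0.23 (adjusted p = 0.373). Leaving out 1 library changed the call of Dusp5 and of Dusp6: without cKO Pg 3, Dusp5 was at 0.35 (adjusted p = 0.0309), and without cKO Pg 1, Dusp6 was at -0.90 (adjusted p = 0.0201). Dusp5 was at 0.28 (adjusted p = 0.00750) with the dendritic cell marker sum as a covariate and at 0.27 (adjusted p = 0.00245) without the 4 libraries that stood apart. Without those 4, Dusp2 also passed, at -0.26 (adjusted p = 0.00939). The remaining 5 genes lay between -0.07 for Dusp7 and 0.29 for Dusp8.

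The stromal markers and Lyz2 moved with the genotype beside these values. Lyz2 averaged 10131 CPM in cKO Pg and 9754 CPM in cKO control, against 19489 CPM in cHet Pg and 19345 CPM in cHet control libraries. The part of these, or of the erythroid and mast cell markers in controls, in the phosphatase differences was not tested.

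**Figure D4:**
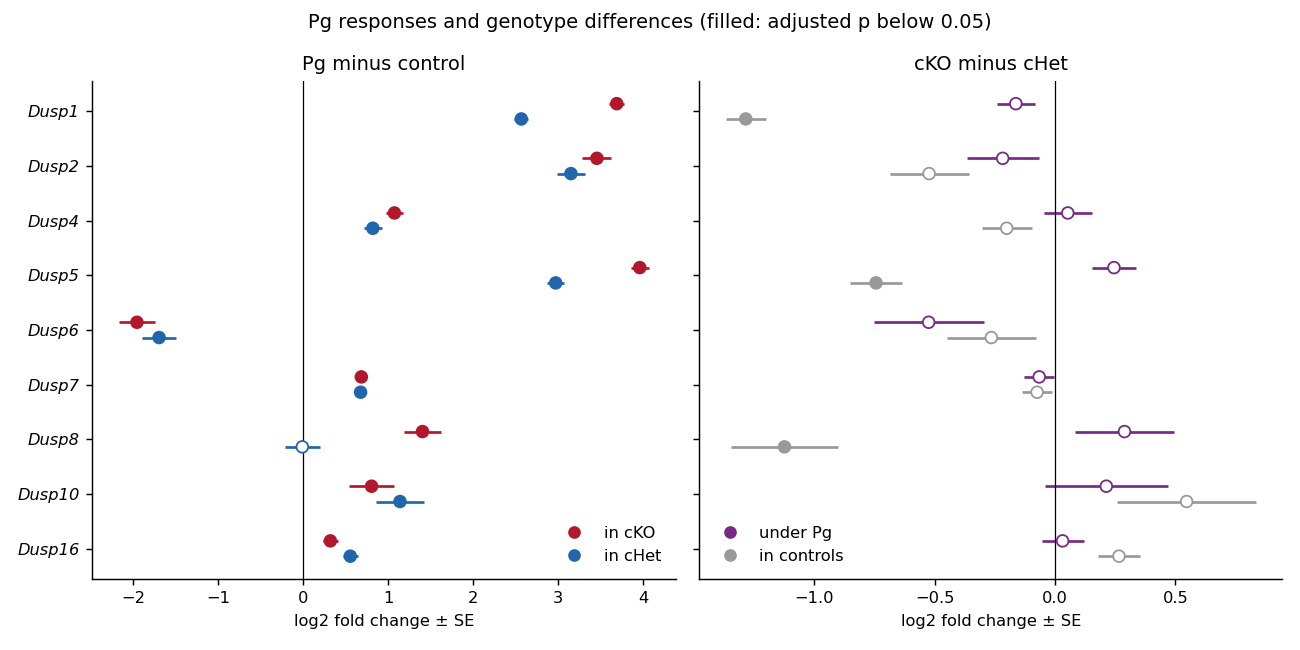
Log2 fold changes ± SE of the 9 phosphatase genes, on the left for Pg minus control in cKO and in cHet and on the right for cKO minus cHet under Pg and in controls, with filled points at an adjusted p below 0.05. Dusp1, Dusp5 and Dusp8 show larger responses in cKO than in cHet on the left and lower control levels in cKO on the right.

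The interaction tests whether the Pg response in cKO differs from that in cHet, and 3 of the 9 genes passed it, all with a higher response in cKO, beside 0.717% of all tested genes, 0.457% with a higher and 0.261% with a lower response. It uses the same libraries as the genotype comparisons and is, by construction, the genotype difference with Pg less the one without. Dusp1 had an interaction of 1.12 ± 0.11 on the log2 scale (adjusted p = 0.000280), Dusp5 of 0.99 ± 0.14 (adjusted p = 0.00460) and Dusp8 of 1.41 ± 0.30 (adjusted p = 0.0379). For each of the 3 the genotypes differed in control cells and did not pass the test under Pg. The calls of Dusp1 and Dusp5 held in each of the 20 alternatives tried, with values of 1.05 to 1.21 for Dusp1 and 0.90 to 1.10 for Dusp5. The call of Dusp8 was lost in 10 of 20, with values of 1.19 to 1.70 over all 20. It was lost with the replicate block (adjusted p = 0.0612) and without any 1 of 9 libraries (adjusted p = 0.0598 to 0.128), the exceptions being cKO Pg 3, cHet Pg 3 and cHet control 1. It held without the 4 libraries that stood apart in dendritic cell markers (1.44, adjusted p = 0.00522) and with the marker covariate (1.41, adjusted p = 0.00449).

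None of the remaining 6 genes passed the interaction test. Dusp2 was at 0.31 (95% interval -0.21 to 0.82), Dusp4 at 0.25 (-0.08 to 0.59), Dusp6 at -0.26 (-0.94 to 0.42), Dusp10 at -0.33 (-1.22 to 0.55) and Dusp16 at -0.23 (-0.52 to 0.05). With the dendritic cell marker sum as a covariate, Dusp4 was at 0.33 (adjusted p = 0.0185) and Dusp16 at -0.29 (adjusted p = 0.0421). Without the 4 libraries that stood apart, Dusp2 was at 0.37 (adjusted p = 0.0290). Leaving out 1 library moved Dusp6 to between -0.63 and -0.03, without cKO Pg 1 and without cKO Pg 2, and Dusp10 to between -0.69 and -0.12, without cHet control 1 and without cHet control 3, and neither passed.

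Among themselves the 9 genes differed in their profiles over the 12 libraries. Likeness was measured as the root mean square difference of centred log2 CPM, which is a description with no test, since all genes share the same libraries. Profiles were not scaled, so the measure reflects the size of a response as well as its shape. The median distance to all other tested genes ran from 0.38 for Dusp16 to 1.77 for Dusp5. Distances of different members are therefore not directly comparable. Dusp4 and Dusp7 were the closest pair at 0.18, Dusp2 was 0.30 from both Dusp5 and Dusp1, and Dusp5 and Dusp6 were the farthest pair at 2.68. Of all other protein-coding genes, the 3 nearest to Dusp1 were Tnfsf9 at 0.17, Eid3 at 0.28 and Ccl7 at 0.30. The 3 nearest to Dusp5 were Fosl1 at 0.13, Cxcl2 at 0.16 and Eid3 at 0.19. Those nearest to Dusp2 were Hilpda at 0.22, Tnfsf9 at 0.24 and Il1b at 0.25. Tnfsf9 encodes a ligand of the TNF family, Ccl7 and Cxcl2 encode chemokines, Il1b a cytokine, and Fosl1 an AP-1 subunit.

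The nearest genes to Dusp8 were Zfp36l1 at 0.28, Ier2 at 0.29 and Ppp1r15a at 0.29. Ppp1r15a encodes a regulatory subunit that steers a phosphatase in the stress response, and Zfp36l1 a protein that binds AU-rich elements of mRNA. Dusp4 lay nearest to Mafk, Rel and Fam107b (0.08 to 0.10), Dusp7 to Tmem189, Akap13 and Anxa5 (0.04 to 0.07) and Dusp16 to Sestd1, Nab1 and Rc3h1 (0.06 for each). Dusp6 lay nearest to Themis2, Txnip and Inka1 (0.29 to 0.30), and Dusp10 to Fubp1, Ttc39b and Kcna3 (0.21 to 0.23).

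The other genes of the MAP kinase pathway were read from 8 lists with 81 tested genes, of which Spry2 stands in 2. Of the 81 genes, 39 passed under Pg in cKO and 42 in cHet, beside 34% and 36.1% of all tested genes, with 16.9% higher and 17.1% lower in cKO and 18% each way in cHet. The counts below are of 6 to 17 genes a list, and one near these shares, such as 3 of 10 MAP kinases in cKO, is no result about the list. Apart from the output genes of ERK, the list medians lay between 0.01 and 0.26 in cKO and between -0.06 and 0.32 in cHet, against 0.00 and -0.01 over all tested genes. Of 12 other dual-specificity phosphatases tested, 2 rose in cKO and 2 in cHet under Pg and none fell, with medians of 0.03 in cKO and 0.09 in cHet. Dusp14, which rose in both, averaged 0.854 CPM in cKO Pg and 0.0392 CPM in cKO control, against 1.27 CPM in cHet Pg and 0.115 CPM in cHet control libraries. No control library exceeded 0.233 CPM, so Dusp14 passed the filter on low counts through its Pg libraries. Its count as a rise is therefore not independent of that filter. Of 6 serine/threonine and tyrosine phosphatases that act on MAP kinases, 4 rose and 1 fell in each genotype. Ppp2ca, a catalytic subunit of protein phosphatase 2A, rose by 0.72 ± 0.06 in cKO and 0.78 ± 0.06 in cHet, and Ppm1d, named after its values were seen, fell by 0.34 in cKO and 0.62 in cHet.

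Among 10 MAP kinases, 2 rose and 1 fell in cKO, and 4 rose and 2 fell in cHet. Mapk6, an atypical MAP kinase, rose by 1.19 ± 0.08 in cKO and 1.00 ± 0.08 in cHet. Mapk8, which encodes a JNK, rose by 0.61 ± 0.10 in cKO and 0.53 ± 0.10 in cHet, and Mapk14, which encodes p38 alpha, fell by 0.23 in cKO and 0.36 in cHet. Of 7 MAP2 kinases 4 rose in cKO, and 3 rose and 1 fell in cHet, led by Map2k3, an activator of p38, at 1.59 ± 0.08 in cKO and 1.47 ± 0.08 in cHet. Of 17 MAP3 kinases 7 rose and 2 fell in cKO, and 5 rose and 3 fell in cHet. Map3k6 rose by 1.19 ± 0.15 in cKO and 1.26 ± 0.15 in cHet. Map3k8, the kinase that links Toll-like receptors to ERK and named after its values were seen, rose by 0.83 ± 0.18 in cKO and 0.88 ± 0.18 in cHet. Of 10 kinases activated by MAP kinases 4 rose and 1 fell in cKO, and 5 rose and 3 fell in cHet. Mapkapk2, the p38 target that stabilises cytokine mRNA, rose by 0.60 ± 0.06 in cKO and 0.59 ± 0.06 in cHet.

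Other inhibitors of Ras and ERK signalling and the genes that read out ERK held some of the larger changes. Of 10 Sprouty, Spred and related inhibitors 5 rose and 1 fell in cKO, and 4 rose and 1 fell in cHet. Errfi1, an inhibitor of the EGF receptor, rose by 3.74 ± 0.23 in cKO and 3.21 ± 0.22 in cHet, and Spred2 by 1.03 ± 0.08 in cKO and 1.33 ± 0.08 in cHet. Of 10 genes of transcriptional output of ERK 6 rose in cKO and 5 in cHet and none fell, with medians of 1.24 in cKO and 0.89 in cHet. Fosl1 rose by 4.28 ± 0.18 in cKO and 3.23 ± 0.17 in cHet, and Phlda1 by 3.85 ± 0.14 in cKO and 3.30 ± 0.13 in cHet. Dusp6, often counted among such output genes, fell in both genotypes.

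Between genotypes edgeR called none of the 81 genes of these lists under Pg, beside 1.85% of all tested genes, and DESeq2 also called none. An unadjusted p below 0.05 was found for 8 of the 81, beside 1687 of all 13800 genes. In control cells edgeR called 7 of the 81, beside 5.15% of all tested genes, and DESeq2 10, beside 864 genes in all. Counts this small are no result about the lists. Ier3, an early response gene, was at -0.98 ± 0.11 (adjusted p = 5e-05), Map3k1 at -0.41 ± 0.07 (adjusted p = 0.00352), Mknk2 at -0.33 ± 0.07 and Spry1 at -0.92 ± 0.25. Spred2, Dusp11 and Braf were higher in cKO control cells, at 0.32 ± 0.08, 0.30 ± 0.08 and 0.23 ± 0.06. In the interaction edgeR called 1 of the 81, Ier3, while DESeq2 called 2 and edgeR with no filter on low counts 5. Over all genes edgeR called 0.717%, DESeq2 259 genes and the fit with no filter 389 genes. Ier3 was at 0.96 ± 0.15 (adjusted p = 0.00950). Like Dusp1 and Dusp5, it was lower in cKO than in cHet control cells, with 76.0 CPM against 149 CPM, and close under Pg, with 322 CPM in cKO and 326 CPM in cHet.

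**Figure D5:**
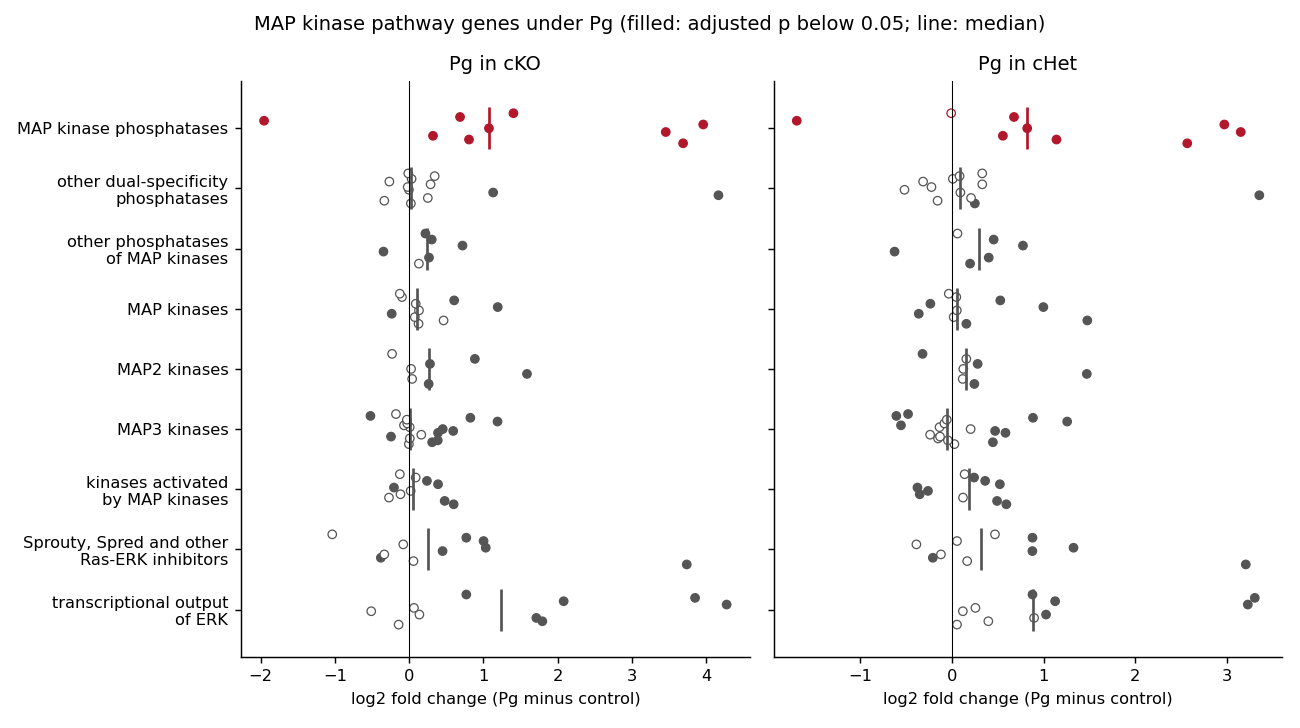
Log2 fold changes under Pg of the 9 phosphatase genes and of 8 lists of other MAP kinase pathway genes, on the left in cKO and on the right in cHet, with filled points at an adjusted p below 0.05 and a line at the median of each list. The medians of 1.08 in cKO and 0.82 in cHet for the phosphatases and of 1.24 and 0.89 for ERK output stand right of those of the other lists.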

How the data were processed

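The authors deposited 1 table of raw counts, with 12 columns of libraries and a row for each gene. Per the submitters' processing notes, the tools were fastp, HISAT2 2.0.5 and featureCounts 1.5.0-p3 on mm10. How strand and multi-mapping reads were handled, and which annotation was counted, is not given in the sources used here.

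These counts entered edgeR 4.0.16 (R 4.3.3). After filterByExpr and TMM scaling, a model with a mean for each of the 4 groups was fitted to all libraries, and 5 contrasts were tested by the robust quasi-likelihood F test with Benjamini-Hochberg adjustment over all 13800 genes kept. Every adjusted p without another name comes from it. SE is the log2 fold change divided by the root of F, and CPM uses TMM-scaled library sizes. The 95% intervals use the residual degrees of freedom alone, fewer than the test uses, and are therefore wider than the test implies. DESeq2 1.42.0 and limma 3.58.1 (voom) were alternatives. The fit was tested on simulated data.

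The members and lists were chosen with earlier results of these data known. Named genes were all members, Itga9 and Lyz2, from each list up to 3 called genes with the smallest p, and the 3 genes nearest to each member. Marker lists were read as summed CPM. Libraries of 1 group differed by more than sampling noise.

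Replicate numbers were taken to pair libraries where every same-numbered pair had correlated deviations above 0.1, which held only for the control libraries (0.176 to 0.666). That rule does not establish a pairing, since control libraries 2 and 3 correlated more across numbers (0.412 and 0.469). Promoters are RefSeq's for GRCm38.p6.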

Additional observations from a re-analysis of the deposited data

Results flagged for a closer look

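The test of the interaction found a Pg response that differed between the genotypes for 3 of the 9 genes. The response in cKO minus that in cHet, on the log2 scale, was 1.12 for Dusp1, 0.99 for Dusp5 and 1.41 for Dusp8. Each difference was accompanied by a lower control level in cKO than in cHet. With 99 of 13800 genes past the threshold in this comparison, the adjusted p of Dusp8 (0.0379) was near the threshold, and those of Dusp1 (0.000280) and Dusp5 (0.00460) were not. No explanation was tested.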

How the results depend on the processing

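The Pg calls of Dusp1, Dusp2, Dusp4, Dusp5, Dusp6 and Dusp7 in both genotypes, of Dusp8 in cKO and of Dusp10 and Dusp16 in cHet held in all 21 alternatives. One of these, without the 4 libraries apart in dendritic cell markers, leaves the markers and Pg inseparable. With library size as the only scaling the median of all genes shifted by -0.25 in each Pg comparison, and 18.7% of the calls in cKO and 19.2% in cHet were rises, against 49.7% and 50% with TMM.

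Between genotypes under Pg, 255 genes and 0 members passed. There were 507 and 2 with no filter, 775 and 1 with the dendritic cell marker covariate, and 771 and 2 without the 4 libraries apart, both chosen after seeing the data. Leaving out 1 library gave 153 to 307 genes and 0 to 1 members. In controls, 711 genes and 3 members passed. No filter gave 1101 genes, the covariate 1723 genes and 5 members, and the 4 left out 1422 genes and 6 members. Leaving out 1 library gave 319 to 828 genes and 3 to 4 members, the lowest without cKO control 3, with 355 without cHet control 3 and 426 without cHet control 2. For the interaction, 99 genes and 3 members passed. DESeq2 gave 259 genes, no filter 389, the covariate 736 genes and 5 members, and the 4 left out 868 genes. Leaving out 1 library gave 42 to 207 genes and 2 to 3 members.

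The replicate block in the 6 control libraries alone, also chosen after seeing the data, gave 1798 genes and 7 members. With the replicate block in all 12 libraries 549 genes and 3 members passed in controls. In that fit the interaction gave 70 genes and 2 members, with Dusp8 lost (adjusted p = 0.0612), and no other member call changed.

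Values that changed sign were small and did not pass the test. The Pg response of Dusp8 in cHet was 0.0022 with DESeq2, 0.0029 with RLE scaling, 0.0049 with the covariate, 0.0036 without the 4 libraries apart and -0.30 to 0.22 without 1 library. The genotype difference under Pg without 1 library was -0.043 to 0.14 for Dusp4 and -0.037 to 0.13 for Dusp16, which was at -0.0020 with the covariate. The Dusp7 interaction was -0.031 to 0.046 without 1 library. With other gene lengths, 18 of the 36 shares moved by more than 1 SD. The cause of each change was not tested. Dusp8 and Dusp10, with 14 to 154 counts per library, and Dusp6 are the least precisely measured members. Between genotypes under Pg the SE was 0.26 for Dusp10, 0.23 for Dusp6 and 0.21 for Dusp8.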
